A study of Mus musculus with 8 samples.

Results

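The chloride intracellular channel (Clic) genes Clic1, Clic3, Clic4, Clic5 and Clic6 and the neighbouring membrane protein genes Tmem176a and Tmem176b were followed in dermal fibroblasts of old and young mice. Clic5 and Tmem176b were chosen by their old minus young differences, among the largest increases in these same arrays, and the other 5 genes are their paralogues. Every probe set that the platform annotation gives to exactly 1 of these 7 symbols was taken, which made 12 of the 45141 probe sets of the table. Clic5 had 4 of them, Tmem176a and Clic6 had 2 each, and the remaining 4 genes had 1 each.

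The study asks how age alters the transcriptome of skin fibroblasts. It holds 8 arrays, 1 per mouse, from 4 old mice (18 months) and 4 young mice (2 months), all male and of the C57Bl/6 strain, with no treatment named. The cells came from collagenase-digested skin freed of its subdermis and were sorted for Pdgfra and CD34 and against CD45, CD117, CD24, CD31 and EpCam, and their RNA was amplified before labelling. The values are log2 expression per probe set after RMA, in which 1 unit is a 2-fold difference, and a probe set is called dim here when its mean lies below 5.10, the median of all probe set means. Array medians lay between 5.06 and 5.14. A pair of old and a pair of young mice was taken per day, but the labels do not say which. Replicates are numbered in order of deposition within an age. The numbers in the sample titles fall into 2 runs, each with 2 old mice (replicates 1 and 2, or 3 and 4) and the young mice of the same replicate numbers.

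CLIC proteins are unusual among channels because they exist in a soluble form, folded like the omega class of glutathione transferases, and in a membrane-bound form. Much of what is known of them concerns the cell cortex and vesicle traffic, and CLIC5 is known as a partner of ezrin-family linkers between membrane and actin, with a mutant mouse, jitterbug, that loses hearing and balance. Tmem176a and Tmem176b encode related multi-span membrane proteins that resemble the MS4A family and are best known from dendritic cells, and human TMEM176B, then called LR8, was described in lung fibroblasts.

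The sequences shown are the RefSeq promoter windows (GRCm38.p6, 250 bases before to 50 after a transcript start) of the genes whose levels differed between the ages, and that of Clic4 as the paralogue set beside Clic5. The window table held 6 of the 7 genes, all but Clic6. Tmem176a and Tmem176b lie head to head on chromosome 6: a Tmem176a start on the plus strand lies 109 bases from a Tmem176b start on the minus strand, and the 2 windows share 208 bases. The window chr6:48841233-48841532 on the plus strand holds both starts, with the 108 bases between them in capitals.
Tmem176a and Tmem176b: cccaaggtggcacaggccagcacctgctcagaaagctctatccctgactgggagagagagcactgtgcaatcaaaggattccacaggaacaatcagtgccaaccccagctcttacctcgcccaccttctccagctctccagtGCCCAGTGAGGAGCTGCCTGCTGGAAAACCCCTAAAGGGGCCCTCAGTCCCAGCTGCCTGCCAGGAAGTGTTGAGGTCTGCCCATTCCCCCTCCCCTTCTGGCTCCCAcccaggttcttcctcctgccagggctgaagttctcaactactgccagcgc
The table lists 3 starts for Tmem176b and 2 for Tmem176a, and which of them these cells use was not measured.

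For Clic5 and Clic4, capitals mark matches on either strand to the TATA box letters TATAAA, the NF-Y type letters CCAAT, the GC box letters GGGCGG or the E-box letters CACGTG. The Clic5 window is chr17:44188322-44188621 on the plus strand, and the Clic4 window is chr4:135272711-135273010 on the minus strand, written 5′ to 3′ along the gene.
Clic5: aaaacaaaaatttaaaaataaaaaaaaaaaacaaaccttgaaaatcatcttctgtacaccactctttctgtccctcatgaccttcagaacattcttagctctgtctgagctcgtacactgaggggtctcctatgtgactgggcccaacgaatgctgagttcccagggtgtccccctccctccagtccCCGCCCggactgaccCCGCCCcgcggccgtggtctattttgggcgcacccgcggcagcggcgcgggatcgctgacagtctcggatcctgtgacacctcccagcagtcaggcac
Clic4: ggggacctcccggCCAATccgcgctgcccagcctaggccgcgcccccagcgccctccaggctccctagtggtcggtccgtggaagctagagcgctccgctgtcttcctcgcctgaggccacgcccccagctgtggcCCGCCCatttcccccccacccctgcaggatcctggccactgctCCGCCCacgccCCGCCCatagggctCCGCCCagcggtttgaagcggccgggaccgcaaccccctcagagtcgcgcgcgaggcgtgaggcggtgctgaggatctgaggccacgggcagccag
The Clic5 window holds 2 GC boxes and none of the other motifs, and the Clic4 window holds 4 GC boxes and 1 CCAAT, with no motif overlapping another. No letters of any of the 4 motifs occur in the windows of Tmem176a and Tmem176b. Of 32544 distinct windows, 35.9% hold the GC box letters, 37.4% those of CCAAT, 13.6% the TATA box letters and 7.17% the E-box letters. The window of Clic5 has 54.3% G and C with 16 CpG and that of Clic4 has 73.3% with 28 CpG, against medians of 53.0% and 7 over all windows, while the Tmem176 window printed here has 59.7% with 2 CpG.

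Clic5 was higher in old than in young fibroblasts on each of its 4 probe sets. On the brightest, the old mice had 8.45, 8.47, 8.49 and 8.75, against 6.05, 5.73, 6.01 and 7.09 in the young mice (replicates 1 to 4 of each age, log2). The old mice lay close together and the young mice were spread, with young replicate 4 more than 1 unit above the other 3, and the ages did not overlap. The means were 8.54 ± 0.14 in old and 6.22 ± 0.60 in young mice (SD, n = 4 each), a difference of 2.32 ± 0.25 (SE) or 4.99-fold. Since this contrast chose Clic5, its differences are given as values with no test.

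The second Clic5 probe set had 7.71, 7.79, 7.29 and 7.45 in old mice, against 5.60, 5.36, 5.79 and 6.20 in young mice, a difference of 1.82 ± 0.18 (SE). Both dimmer probe sets had narrower gaps. The third had 5.86, 5.79, 5.83 and 5.96 in old mice and 4.57, 4.58, 4.60 and 4.95 in young mice, or 1.19 ± 0.09 (SE). The dimmest had 5.22, 5.03, 5.14 and 5.28 in old mice and 4.19, 4.19, 4.06 and 4.21 in young mice, or 1.00 ± 0.07 (SE). In all 4 probe sets the lowest old mouse lay above the highest young mouse, by 0.82 to 1.36, and young replicate 4 was the highest young mouse each time. The young means of these dimmer sets, 4.67 and 4.16, lay below the dim threshold. After each age's mean was taken off, the 6 pairs of these probe sets had r from -0.16 to 0.95 over the 8 mice, a description of sets that share their arrays.

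Tmem176b was higher in old mice by a similar amount. The old mice had 9.54, 9.49, 9.75 and 9.61, against 8.16, 7.37, 6.69 and 6.94 in the young mice. The ages lay 1.33 apart at their nearest, and the spread among young mice was again the wider, with means of 9.60 ± 0.11 in old and 7.29 ± 0.64 in young mice (SD, n = 4 each). The difference was 2.31 ± 0.27 (SE) or 4.95-fold, with no test because it chose the gene. Its probe set carries the suffix that Affymetrix gives to sets matching several transcripts of 1 gene.

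Tmem176a, the head-to-head neighbour and paralogue, also rose. Its brighter probe set had 7.62, 7.67, 7.97 and 7.83 in old mice, against 6.26, 5.68, 5.77 and 5.14 in young mice. The ages did not overlap, and the difference was 2.06 ± 0.20 (SE; 4.17-fold, limma adjusted p = 0.00134 over all 45141 probe sets). The dimmer probe set had 5.71, 5.58, 5.75 and 5.49 in old mice and 4.85, 4.71, 4.63 and 4.85 in young mice, or 0.87 ± 0.08 (SE, limma adjusted p = 0.00104). Young replicate 4 was the lowest young mouse on the brighter probe set and shared the highest young value on the dimmer one, whose suffix marks probes that may bind other sequences as well. The probe sequences were not used here, so binding of Tmem176b transcript to either Tmem176a probe set was not tested.

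**Figure D1:**
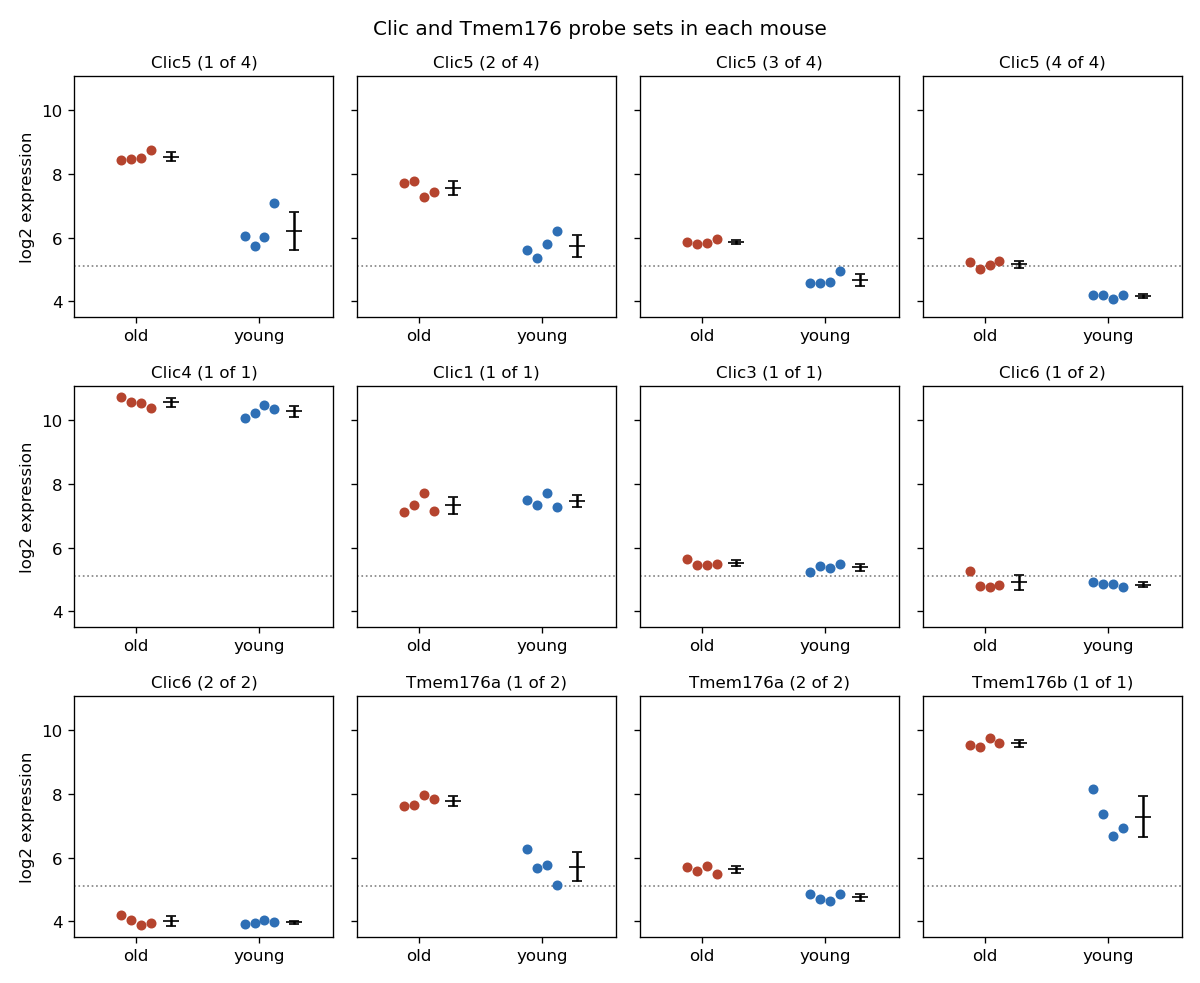
Log2 expression of the 12 Clic and Tmem176 probe sets in each mouse, numbered by brightness within a gene. Points are mice (replicates 1 to 4 from left to right), with the mean ± SD beside them and the dim threshold of 5.10 dotted. Old mice lie above all young mice for Clic5, Tmem176a and Tmem176b, while the ages overlap for Clic4, Clic1, Clic3 and Clic6.

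None of the other Clic genes passed the threshold of an adjusted p under 0.05. Clic4, which moves between the cytoplasm and the nucleus and is known for a role in TGF-beta signalling, had 10.73, 10.57, 10.55 and 10.40 in old mice, against 10.07, 10.22, 10.47 and 10.37 in young mice. Old replicate 4 lay below young replicate 3, so the ages overlapped, and the difference was 0.28 ± 0.10 (SE, limma adjusted p = 0.243, 95% confidence interval 0.05 to 0.51 unadjusted). Clic4 lay far above the dim threshold in both ages.

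Clic1, a member known from macrophages, had 7.13, 7.35, 7.71 and 7.15 in old mice, against 7.50, 7.33, 7.73 and 7.29 in young mice. The difference was -0.13 ± 0.14 (SE, limma adjusted p = 0.825, interval -0.45 to 0.20). Clic3 had 5.65, 5.46, 5.46 and 5.50 in old mice and 5.25, 5.43, 5.36 and 5.49 in young mice, or 0.14 ± 0.07 (SE, limma adjusted p = 0.507, interval -0.03 to 0.30). For both genes the old and young mice overlapped.

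Clic6, a larger family member first described as parchorin in rabbit secretory cells, was dim on both probe sets. The brighter had means of 4.92 ± 0.23 in old and 4.84 ± 0.07 in young mice and the dimmer 4.01 ± 0.15 in old and 3.97 ± 0.05 in young mice (SD, n = 4 each). The differences were 0.08 ± 0.11 and 0.05 ± 0.08 (SE, limma adjusted p = 0.878 and 0.905), and both had the other sign without old replicate 1, at -0.04 and -0.02. At such levels a change could be missed.

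In all, 7 of the 12 probe sets passed upward and none downward, and the same 7 were those whose ages did not overlap. Over all probe sets 1.23% passed upward, 1.34% downward, and 3.95% had all old mice above all young mice. This contrast chose Clic5 and Tmem176b, and 4 of the 7 probe sets belong to Clic5 alone. Nothing is therefore read from the count, or from the median change and places that follow. The median change was 0.94 over the 12 probe sets and 0.01 over the whole table. By their mean over all mice 9 of the 12 were above the dim threshold, and the third Clic5 and the dimmer Tmem176a probe set were so only through the old mice. Ordered by increase, the brightest Clic5 probe set stood at place 13, Tmem176b at 14 and the brighter Tmem176a at 23 of 45141. Both Tmem176a probe sets passed in each fit that left out 1 of the 8 mice, with differences from 1.87 to 2.24 and from 0.83 to 0.92.

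The division of the mice by title numbers was independent of the choice of genes. Between the runs, 0 of the 12 probe sets differed at an unadjusted p under 0.05 (lowest limma adjusted p = 0.382), against 17.0% of all probe sets at that unadjusted p. For Clic5 the old mice were higher within each run: the brightest probe set differed by 2.57 between old and young replicates 1 and 2 and by 2.07 between replicates 3 and 4. Its second probe set differed by 2.27 and 1.38, a change between runs of -0.90 ± 0.21 (SE, limma adjusted p = 0.571). Tmem176b went the other way, with an age difference of 1.75 in the first run and 2.86 in the second, and so did the brighter Tmem176a with 1.67 and 2.45. For these the change between runs was 1.11 ± 0.32 (limma adjusted p = 0.592) and 0.77 ± 0.33 (adjusted p = 0.738). Clic4 differed by 0.51 in the first run and 0.06 in the second, at -0.45 ± 0.15 (adjusted p = 0.634). In limma's test of whether the age difference itself differed between runs, 0 of the 12 passed and 4 had an unadjusted p under 0.05, beside 0 of all probe sets (0.0%) and 6.75% unadjusted.

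**Figure D2:**
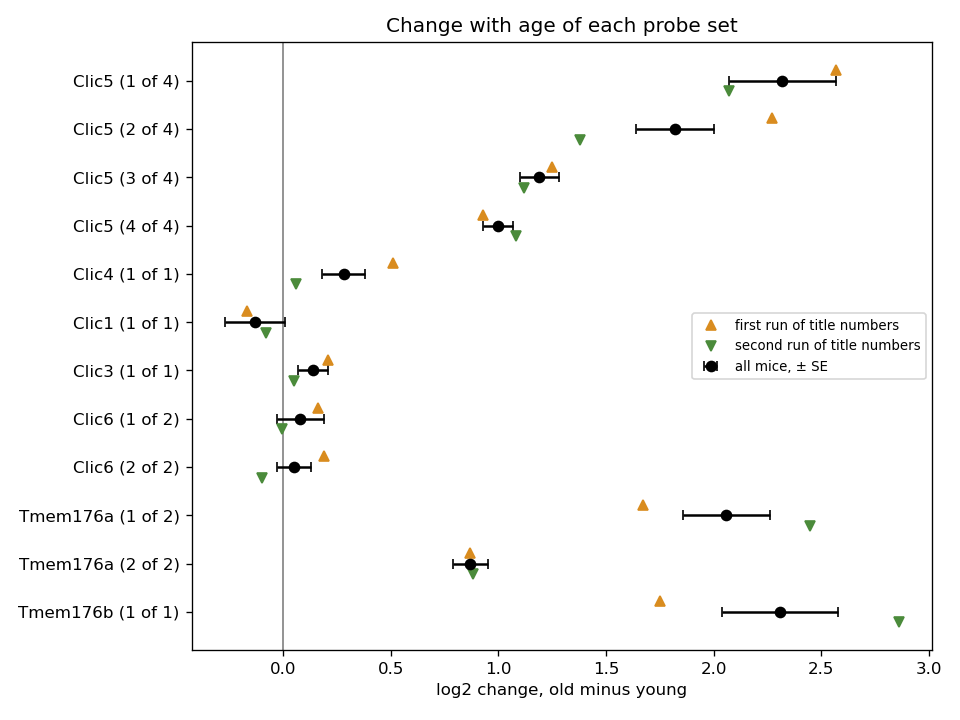
Log2 change of each probe set, old minus young. Black points are the limma estimate over all 8 mice with its SE, and triangles are differences of means within each run of title numbers (2 old and 2 young mice). The Clic5 and Tmem176 sets lie at 0.87 or more, and the other Clic sets between -0.13 and 0.28.

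How closely the members followed each other from mouse to mouse was examined on each mouse's difference from its age mean, which the choice of genes did not use. Over the brightest probe sets of the 7 genes, 21 pairs were compared by exact 2-sided permutation within ages. Tmem176a and Tmem176b had Pearson r = 0.72 (exact p = 0.243, adjusted p = 0.567) and Spearman rho = 0.69 (exact p = 0.108, adjusted p = 0.426) over 8 mice. Within old mice alone r was 0.94 and within young mice 0.72 (4 mice each). Without the 2 mice farthest in Tmem176a, young replicates 1 and 4, the r over the remaining mice was 0.09. The value over all 8 mice thus depends on those 2 young mice. Over the same differences the brighter and dimmer Tmem176a probe sets had r = 0.002. Tmem176b and Clic4 had r = -0.80 (exact p = 0.026, adjusted p = 0.292) and rho = -0.83 (exact p = 0.059, adjusted p = 0.347). For this pair r was -0.31 within old and -0.98 within young mice, and -0.48 without the 2 farthest mice in Clic4. Clic5 and Tmem176b had r = -0.30 (exact p = 0.655, adjusted p = 0.809) and rho = -0.14 (exact p = 0.91, adjusted p = 0.983), and 0.01 without the 2 farthest mice in Clic5. None of the 21 pairs passed after adjustment, and 2 had an exact Pearson p under 0.05 before it, Clic4 with Tmem176b and Clic3 with Tmem176a.

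**Figure D3:**
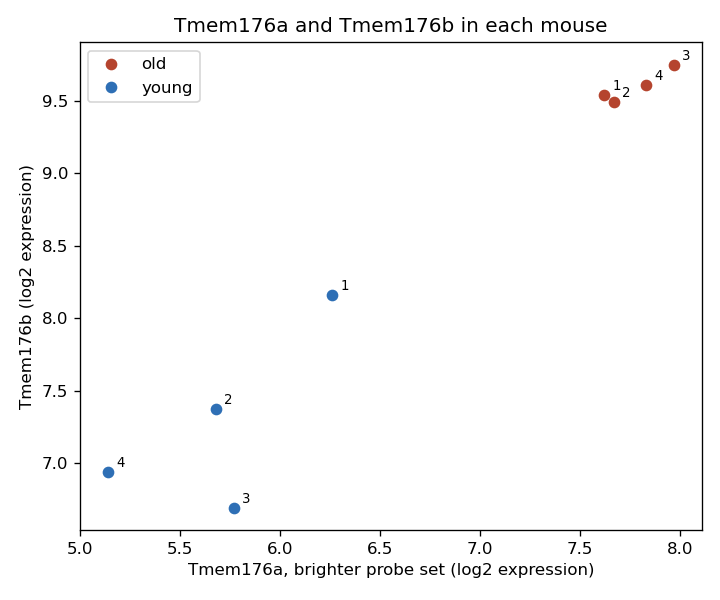
Log2 expression of Tmem176a (brighter probe set, horizontal) and Tmem176b (vertical) in each mouse, with replicate numbers beside the points. The old mice form a tight group at the upper right, and the young mice spread from 5.14 to 6.26 and from 6.69 to 8.16.

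Across all 8 mice, age difference included, the genes with the pattern most like the brightest Clic5 probe set were Timp3, Ctla2a and Duoxa1, with Pearson r = 0.9869, 0.9867 and 0.9822 among 10556 genes above the dim threshold. Timp3 encodes a metalloprotease inhibitor, Ctla2a a cysteine protease inhibitor and Duoxa1 a maturation factor of dual oxidases. Those most like Tmem176b were Cyp4b1, a cytochrome P450, Rarres2, which encodes chemerin, and the ubiquitin ligase gene Rnf213, with r = 0.9925, 0.9887 and 0.9804, and Tmem176a stood 10th with 0.9735. These values describe likeness over 8 arrays that share the age difference.

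The genes next to the members on their chromosomes were compared in the same fit. Of the 10 nearest protein-coding genes around the Tmem176 pair, 7 were measured, among them 5 genes of the Gimap family of immune GTPases, and none passed, with changes from -0.10 to 0.13. Only 3 of these 7 were above the dim threshold. Around Clic5, 8 of 10 were measured and 2 passed, where 3.36% of the brightest probe sets of all genes passed. Enpp4, an ectoenzyme that cleaves extracellular nucleotides and the nearest gene on one side, had 6.50, 6.51, 6.44 and 6.46 in old mice, against 5.66, 6.11, 5.74 and 5.96 in young mice. It rose by 0.61 ± 0.10 (SE, limma adjusted p = 0.0129), and its dimmer probe set rose by 0.52 ± 0.11 (adjusted p = 0.0412). Rcan2, a calcineurin regulator 3 genes away, rose by 1.15 ± 0.19 (adjusted p = 0.0144), while its second probe set, dim at 4.40, changed by 0.09 ± 0.11 (adjusted p = 0.833). On the other side Supt3 and the splicing factor gene Cdc5l were above the dim threshold and differed by -0.02 ± 0.10 and -0.18 ± 0.08 (adjusted p = 0.971 and 0.397). Whether these neighbours are linked to Clic5 was not tested.

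**Figure D4:**
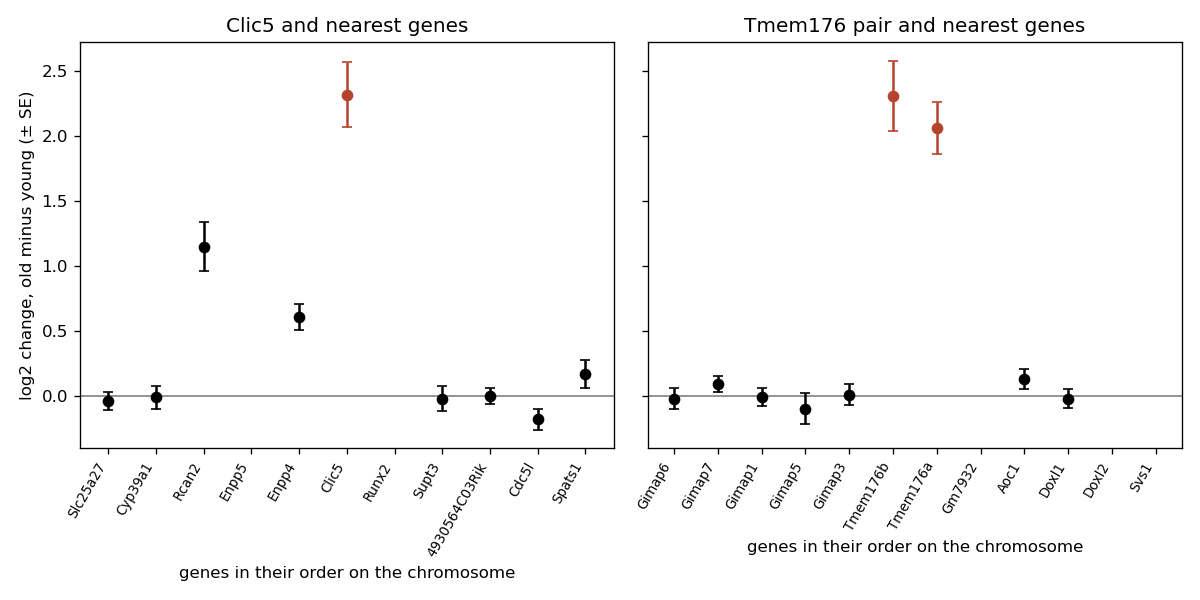
Log2 change, old minus young, with SE for Clic5 (left, red) and the Tmem176 pair (right, red) and their nearest protein-coding genes (black) in chromosome order. Names with no point had no probe set of their own. Enpp4 and Rcan2 lie above 0 beside Clic5, and the measured genes beside the Tmem176 pair lie within -0.10 and 0.13.

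Other genes of the field were counted by their brightest probe set. Of 11 measured partners of CLIC5 and ezrin, limma called 0 (3 with an unadjusted p under 0.05), with a median change of -0.0025. The linker genes Msn, Rdx and Ezr differed by -0.02 ± 0.08, 0.27 ± 0.11 and 0.03 ± 0.06 (limma adjusted p = 0.971, 0.329 and 0.941), Ezr being dim in both ages. The scaffold genes Akap9 and Iqgap1 differed by -0.29 ± 0.07 and -0.42 ± 0.15 (adjusted p = 0.0707 and 0.217). Of 28 measured chloride channel and cotransporter genes of other families, 0 passed (2 at an unadjusted p under 0.05), with a median of -0.01. The largest difference was that of the cotransporter gene Slc12a2, at -0.67 ± 0.16 (adjusted p = 0.0748).

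Among 15 measured cytosolic glutathione transferases, whose fold the CLIC proteins share, 2 rose and none fell, with a median of 0.01. Gstt1 had 9.56, 9.81, 9.69 and 9.62 in old mice, against 9.09, 8.74, 8.54 and 8.84 in young mice, and rose by 0.87 ± 0.11 (limma adjusted p = 0.00491). Gstm1 rose by 0.58 ± 0.10 (adjusted p = 0.0147) on a probe set whose suffix marks probes that may bind other sequences as well. Its other 3 probe sets changed by 0.61 ± 0.09, 0.35 ± 0.11 and 0.05 ± 0.09 (adjusted p = 0.00656, 0.16 and 0.904). Gsto1, of the omega class closest to the CLIC fold, differed by 0.42 ± 0.11 (adjusted p = 0.085) and did not pass. Of 15 measured MS4A genes, 11 were dim in both ages and only Ms4a4d passed. It had 10.14, 10.05, 10.28 and 10.16 in old mice, against 9.61, 9.81, 9.80 and 9.81 in young mice, and rose by 0.40 ± 0.07 (adjusted p = 0.0239). Leaving out young replicate 1, young replicate 2, young replicate 3, old replicate 3 or old replicate 4 took away its call (highest adjusted p = 0.0684). In the fit, 1.57% of genes passed upward and 1.79% downward by their brightest probe set, and the median of all genes was 0.01.

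Markers of other cell types were set beside these results. Fibroblast genes were above the dim threshold in both ages apart from Pdgfra, although the cells were sorted for its protein. The only Pdgfra probe set was dim at 4.47 ± 0.28 in old and 5.06 ± 0.25 in young mice (SD, n = 4 each). The Col1a2 probe set used averaged 6.92 in old and 7.33 in young mice, against 13.08 and 13.13 for Col1a1. Of 9 fibroblast markers only Thy1 passed, at -0.61 ± 0.07 (limma adjusted p = 0.00208), and 4 more had an unadjusted p under 0.05: Vim at -0.23 ± 0.05, Pdgfra at -0.59 ± 0.16, Col1a2 at -0.40 ± 0.16 and Cd34 at 0.20 ± 0.06. The summed linear level of the 9 was 28600 to 29800 in old and 30100 to 31800 in young mice, lower in old mice without overlap. Of 13 macrophage and dendritic cell markers, the cells in which Tmem176a and Tmem176b are best known, limma called 0 (0 at an unadjusted p under 0.05) and 7 were dim in both ages, with a summed linear level of 953 to 1020 in old and 855 to 996 in young mice. Ptprc, which encodes CD45, averaged 3.51 ± 0.07 in old and 3.43 ± 0.03 in young mice, Cd74 6.48 ± 0.18 in old and 6.33 ± 0.08 in young mice, and H2-Ab1 5.77 ± 0.21 in old and 5.40 ± 0.46 in young mice. The sum of 6 general leukocyte markers ran from 174 to 187 in old and from 147 to 167 in young mice without overlap. Of the 6, 3 were dim in old and 4 in young mice, and limma called 0 (1 with an unadjusted p under 0.05).

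The melanocyte and pericyte lists each had 1 gene past the threshold. The summed level of 8 melanocyte markers was 783 to 1520 in old and 423 to 573 in young mice. Of the 8, 4 were dim in both ages. Only the pigment granule gene Mlana passed, at 2.88 ± 0.35 (limma adjusted p = 0.00351). The transcription factor gene Mitf differed by 0.57 ± 0.22 (adjusted p = 0.278, 1 of the 8 with only an unadjusted p under 0.05) and Pmel by -0.08 ± 0.11 (adjusted p = 0.86). Dct, Tyr, Tyrp1, Sox10 and Kit differed by -0.06 to 0.12. The summed level of 5 pericyte and smooth muscle markers was 296 to 406 in old and 210 to 258 in young mice. Of the 5, 3 were dim in both ages. Only the potassium channel gene Kcnj8 was past the threshold, at 1.16 ± 0.16 (adjusted p = 0.00595). Rgs5 differed by -0.04 ± 0.19, and Myh11, Cnn1 and Notch3 by -0.04 to 0.04. The sum of 5 T and B cell markers was 221 to 253 in old and 180 to 213 in young mice. Of these 5, 4 were dim in both ages and none was called by limma (1 with an unadjusted p under 0.05). That 1 was Cd79a, the only one not dim, at 0.46 ± 0.11 (adjusted p = 0.0696). The 4 dim genes differed by -0.05 to 0.10. Skeletal muscle, a tissue rich in CLIC5, had 6 of 8 markers dim in both ages and a sum of 225 to 257 in old and 221 to 236 in young mice. The 7 keratinocyte markers had a median change of 0.35 and a sum of 590 to 1700 in old and 525 to 867 in young mice, with 0 called by limma and 2 at an unadjusted p under 0.05. Krt5 differed by 1.12 ± 0.43 (adjusted p = 0.268), Krt14 by 0.24 ± 0.26 and Dsp by 1.11 ± 0.66. Trp63 went the other way, at -0.33 ± 0.21 (adjusted p = 0.592). Old replicate 3 stood out on Dsp, at 7.76 against 4.25 to 5.36 in the other old mice. The same mouse had 9.13 on Krt10, against 6.23 to 6.84 in the others. Epcam, whose protein the sort excluded, differed by 0.40 ± 0.10 (adjusted p = 0.0717). Epcam had 5.23 to 5.61 in old mice, against 4.96 to 5.13 in young mice, without overlap. No marker of the endothelial, Schwann cell, adipocyte or skeletal muscle lists was called by limma, with 1, 0, 0 and 1 genes at an unadjusted p under 0.05. In both ages 4 of 7 endothelial, 2 of 4 Schwann cell and 3 of 4 adipocyte markers were dim, where a change could be missed. Differences were 0.17 ± 0.12 and -0.0025 ± 0.14 for the endothelial genes Pecam1 and Cdh5, 0.07 ± 0.08 for the myelin gene Mbp and -0.02 ± 0.08 for the adipocyte gene Adipoq. They were 0.05 ± 0.08 and 0.01 ± 0.05 for the muscle genes Acta1 and Myh4, 0.04 ± 0.06 and 0.02 ± 0.09 for the T cell genes Cd3e and Cd3d, and -0.02 ± 0.06 for the leukocyte gene Lcp1. The part of other cells in the rise of Clic5, Tmem176a and Tmem176b was not tested. In such bulk RNA, more cells with a transcript and more transcript per cell cannot be told apart.

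**Figure D5:**
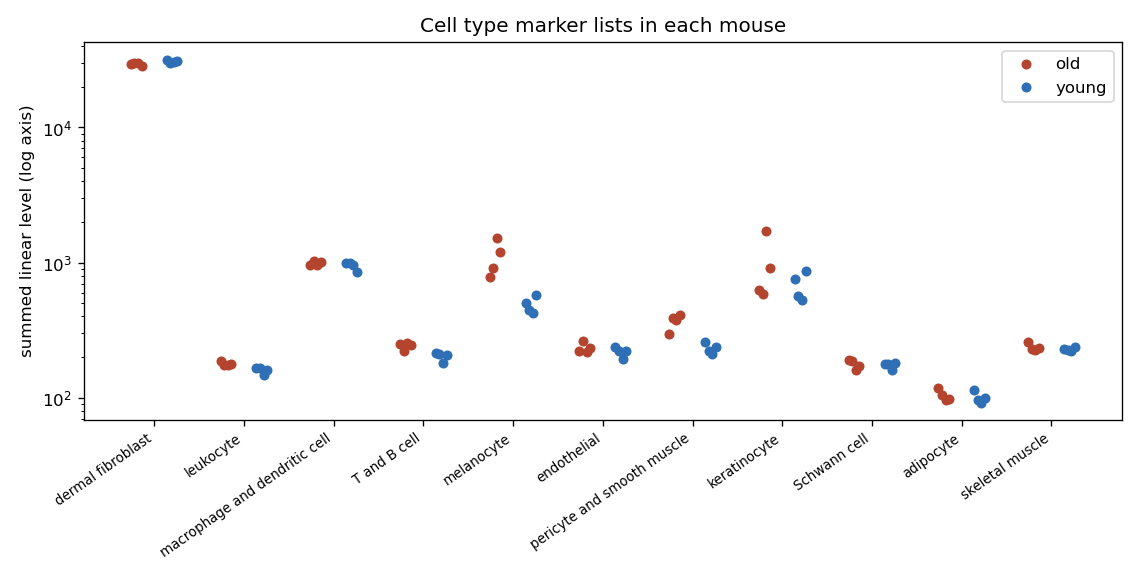
Summed linear level (2 to the power of the log2 value, added over a list's genes, log axis) of each cell type marker list in each mouse. Old mice lie above young mice for the leukocyte, T and B cell, melanocyte and pericyte lists and below them for the dermal fibroblast list, and the ages overlap for the other 6 lists. In both ages 3 of 6 leukocyte and 4 of 5 T and B cell markers were dim. So were 4 of 8 melanocyte and 3 of 5 pericyte markers.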

How the data were processed

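Expression was measured on Affymetrix arrays, 1 per mouse. The authors deposited log2 values per probe set, and the submitters' processing notes name the tools RMA and affy without versions. RMA adjusts background, brings arrays to a common distribution and summarises probes. No array version, and no genome build for the array values, is given in the sources used here, and detection calls were not used. The number of arrays limits the precision.

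Names came from the platform annotation, with 28898 probe sets of 1 symbol, 551 of several and 15692 of none. Old and young mice were compared with limma 3.58.1 in R 4.3.3 (lmFit, eBayes, 2-sided) on all 45141 probe sets, with Benjamini-Hochberg adjustment over all of them. An adjusted p of a change comes from this fit unless the text there names a run, a mouse left out or another setting. Changes are log2, old minus young, with SE. Run of title numbers, and its interaction with age, were fitted in the same way. The title numbers form runs with the makeup of a collection day, but whether they are the days is not stated.

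The members and lists were chosen with earlier results of these data known. A list gene was counted by its brightest probe set. Named are every member probe set, the nearest genes and the 3 most alike. Of each pathway list up to 4 genes past the threshold are named. Of each marker list the genes past it are named, with the first 2 where measured. Others are named as chosen after their values were seen. Among them are Msn, Rdx, Ezr, Akap9, Iqgap1, Slc12a2, Gsto1, Vim, Col1a1, Col1a2, Mitf, Mbp, Dsp, Krt10, Trp63, Cd79a and Epcam. No protein sequences were used here. The script was tested on simulated arrays. Alternatives changed the prior, array weights, dim filter, probe set choice, scaling, threshold, run and each mouse in turn.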

Additional observations from a re-analysis of the deposited data

Results flagged for a closer look

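Among the 24 groups of 4 values (12 probe sets, 2 ages), 4 held a mouse whose gap to its nearest neighbour exceeded 0.829 of the group's range; chance marks about 1 group in 20. On the brightest Clic5 probe set old replicate 4 stood apart at 8.75, on the third Clic5 probe set young replicate 4 at 4.95, and on the fourth young replicate 3 at 4.06. On the brighter Clic6 probe set old replicate 1 stood apart at 5.26, and the Clic6 difference had the other sign without that mouse (-0.04). Without each of the mice in turn the Clic5 differences ranged from 2.16 to 2.61, 1.15 to 1.28 and 0.97 to 1.05 on these 3 probe sets.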

How the results depend on the processing

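Both Tmem176a probe sets passed in every other setting in which they were fitted (18 for the brighter, 16 for the dimmer), among them the title number run as a replicate block (2.06 for the brighter, limma adjusted p = 0.00199), and no paralogue of Clic5 passed in any. For Clic5 and Tmem176b, which this contrast chose, only values are compared: the brightest Clic5 probe set differed by 1.58 with the mean of its probe sets and otherwise by 2.16 to 2.61, and Tmem176b by 2.11 to 2.60. The count of member probe sets past the threshold was 7, with 6 when dim probe sets were left out and 3 with 1 value per gene, and nothing is read from it. The brighter Clic6 set changed sign with array weights (-0.0033) and both without old replicate 1; without 1 mouse they ran from -0.04 to 0.12 and from -0.02 to 0.09. The labels number no replicates across the ages, and which mice shared a day is not given. Over all probe sets, 554 were higher and 607 lower in old mice. Without 1 mouse the counts ran from 302 to 574 and from 351 to 595, and the member count stayed at 7. Array weights gave 840 higher, the run as a block 938 lower, the brightest probe set of each gene 311 higher and 368 lower, the mean of probe sets 354 and 401, and an adjusted p under 0.01 gave 197 and 208. The list of CLIC5 and ezrin partners had 1 gene past the threshold with array weights, with arrays centred on their median and with the block, 2 with the mean of probe sets, and 0 to 1 without 1 mouse. The chloride channel list had 1 with dim probe sets left out, with the mean of probe sets and with the block, and 0 without any 1 mouse. The glutathione transferases kept a count of 2 without any 1 mouse and 1 at an adjusted p under 0.01, and the MS4A list had 0 to 1 and 0. The list settings other than the block and the mean of probe sets were chosen after seeing the data. The cause of these shifts was not tested.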
